A study of Mus musculus with 21 samples.

Results

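The genes described here encode the nuclear subunits of the mitochondrial respiratory chain and ATP synthase, followed across subsets of dendritic cells (DCs) and lymphocytes of the mouse spleen. They were taken by symbol: every probe set on the array with exactly 1 gene symbol that starts with Nduf, Uqcr or Atp5, that is Sdha, Sdhb, Sdhc or Sdhd, or that starts with Cox4 to Cox8. The rule gave 179 probe sets of 90 genes, out of 18193 named genes on the array, and 1 probe set per gene was used, the one with the highest mean signal. Of the 90 genes, 86 exceeded a signal of 156.3, the median of the whole table, on at least 3 of the 21 arrays and entered the tests, which ran over 13284 genes. The 86 comprise 6 core subunits, 28 accessory subunits and 8 assembly factors of complex I, 4 subunits of complex II, 8 of complex III, 14 of complex IV, Ndufa4, which is associated with complex IV, and 17 of ATP synthase.

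The respiratory chain passes electrons from NADH and succinate to oxygen and pumps protons out of the mitochondrial matrix, and ATP synthase uses the proton gradient to make ATP. Complex I oxidises NADH, complex II oxidises succinate, complex III passes electrons on to cytochrome c, and complex IV reduces oxygen. Most subunits are encoded in the nucleus, the ones followed here among them, while a small set is encoded in mitochondrial DNA. DCs are the cells that display antigens to T cells.

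Each of 7 groups had 3 arrays, each array hybridised with RNA of a pool of sorted spleen cells of C57BL/6 mice. DCs were sorted with the 33D1 antibody, which binds CD8-negative DCs, or with the DEC205 antibody, which binds CD8-positive DCs, in each case from wild-type mice (pools of 40 to 80 mice) and from mice that had received a Flt3L melanoma by injection (pools of 20 mice, killed on day 10 to 12). Flt3L is the growth factor that expands DCs, and here it came together with the tumour, so the effects of ligand and tumour cannot be told apart. The lymphocytes, which were B cells and the CD4 and CD8 subsets of T cells, came from wild-type mice (pools of 5 to 8). The labels give no age or sex and do not say how pools of a group were kept apart, so a p-value speaks to the spread among the pools alone, and that spread may be technical.

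The arrays had been scaled by the depositors to a common 2% trimmed mean of 500, and their median signals lay between 121.9 and 204.4. The free-text labels of the lymphocyte samples call them DCs, but their markers followed the titles. The summed signal of 9 B cell markers was 134228.7 to 147078 on the B cell arrays and at most 10394.5 on any other, and that of 10 T cell markers was 83226.9 to 103699.1 on the T cell arrays 5929.8 to 6590.2 on the B cell arrays and at most 1386.7 on any DC array. The summed signal of 7 DC markers, MHC class II genes among them, was 97089.3 to 149977.4 on DC arrays, 99775.3 to 111329 on B cell arrays and 958.6 to 2857 on T cell arrays. Melanoma markers stayed between 514.9 and 1429.7 in every group. Of the DC arrays, replicate 3 of the wild-type DEC205 DCs had the highest sum of 33D1 subset markers in the DEC205 groups (5376.3, against at least 44784.5 in 33D1 DCs). Replicate 3 of the Flt3L 33D1 DCs had the highest sum of DEC205 subset markers in the 33D1 groups (8105.4, against at least 86874.5 in DEC205 DCs). The comparisons of subsets are therefore also given without these 2 arrays. The lowest value in the table was 0.1, so no marker was listed at 0.

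In wild-type mice the respiratory chain genes were lower in 33D1 DCs than in DEC205 DCs, where they were called at all, with 1 exception. Calls were made where the adjusted p was under 0.05 (limma, Benjamini-Hochberg over 13284 genes). Of the 86 genes, 21 were lower in 33D1 DCs, against 11.8% of all genes tested, and 1 was higher, against 11.3% of all genes. The median difference, 33D1 minus DEC205, was -0.275 over the 86 genes and 0.036 over all genes (differences are of log2(signal + 48.6) throughout, a scale that understates changes of low signals). The 3 arrays of 33D1 DCs all lay below the 3 of DEC205 DCs for 48 genes (55.8%, against 19% of all genes), and all above them for 3 genes (against 19.3%). Without the 2 arrays named above, the counts were 15 and 1, beside 1309 lower and 1262 higher of all 13284 genes. The median was then -0.23, against 0.014 over all genes. After quantile normalization the counts were 19 and 1, and the median was -0.171 against -0.009 over all genes. In such bulk samples fewer cells of a type and less RNA per cell cannot be told apart, and the values are relative to the brightness of the whole array.

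The mean log2 signal over the 86 genes gives the same picture array by array. It was 11.632, 11.701 and 11.569 on the arrays of wild-type 33D1 DCs and 11.859, 11.887 and 11.956 on those of wild-type DEC205 DCs. The groups did not overlap. The Flt3L arrays gave 11.638, 11.681 and 11.531 for 33D1 DCs and 11.941, 11.71 and 11.779 for DEC205 DCs, again without overlap. Among the lymphocytes, replicate 3 of the B cells (11.915) and of the CD8 T cells (11.906) lay above the other arrays of their groups, and CD4 T cells had 11.651, 11.689 and 11.546.

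**Figure D1:**
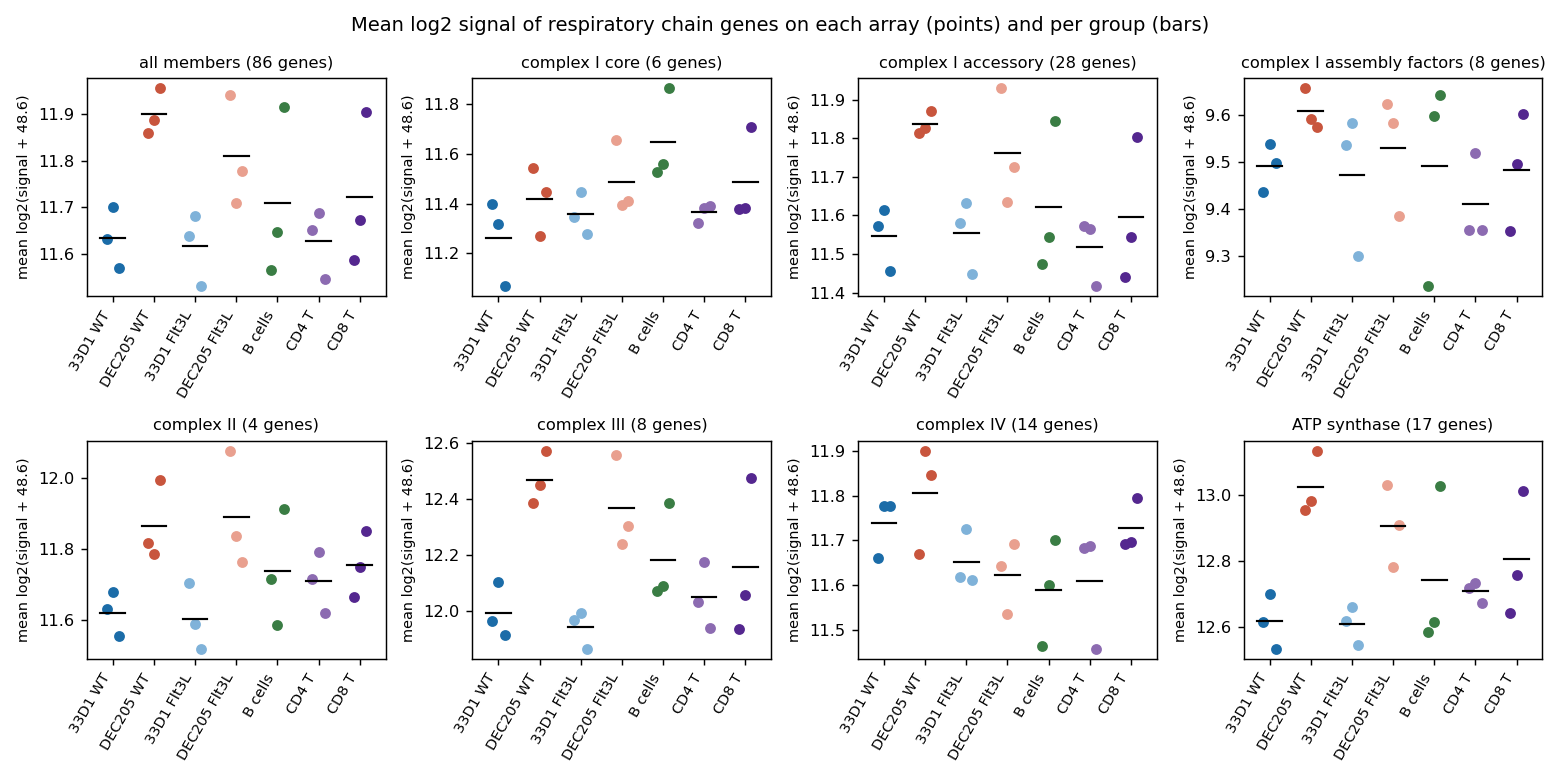
Mean log2(signal + 48.6) of the respiratory chain genes on each array, over all 86 genes and by complex (points, arrays; bars, mean of 3 arrays). Over all 86 genes the wild-type DEC205 arrays (11.859 to 11.956) lie above the wild-type 33D1 arrays (11.569 to 11.701). The gap is also seen in complex II, complex III, ATP synthase and the accessory subunits and assembly factors of complex I. The 8 assembly factors went in both directions, with 5 differences above 0, 3 below and a median of 0.036. In the core of complex I and in complex IV the arrays of the subsets overlap.

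Complex III, which takes electrons from ubiquinol, had 5 of its 8 genes lower in wild-type 33D1 DCs, against 11.8% of all genes. Its median difference was -0.546. Uqcrfs1, the Rieske iron-sulfur protein, had signals of 3711.1, 3695.3 and 3172.6 in 33D1 DCs and 5792.9, 4751 and 5999 in DEC205 DCs. The groups did not overlap, and the difference was -0.63 ± 0.17 (standard error; adjusted p = 0.00836). Uqcrc2, a core protein of the complex, had 3823.8, 6170.8 and 5402.3 against 7348.3, 7864.6 and 9533.9, a difference of -0.70 ± 0.17 (adjusted p = 0.00315). Uqcr11, a small subunit, had 1778.2, 2036.2 and 1717 against 2960.9, 2915.4 and 2922.9, a difference of -0.66 ± 0.16 (adjusted p = 0.00372). Uqcrb, another small subunit, had 15044.3, 14748.9 and 10811.9 against 20447.4, 21360.1 and 22577.4, a difference of -0.68 ± 0.14 (adjusted p = 0.000907). In each of these genes every 33D1 array was below every DEC205 array. The fifth called gene, Uqcrq, differed by -0.46 ± 0.16 (adjusted p = 0.0471), and its call was lost whenever any 1 array of either subset was left out, with adjusted p between 0.0603 and 0.17. Uqcrc1, Uqcrh and Uqcr10 were not called.

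ATP synthase had 7 of 17 genes lower on the 33D1 side and 0 higher in wild-type mice (limma; 11.8% and 11.3% of all genes). An unadjusted p under 0.05 was found for 14 of the 17, against 4218 of all 13284 genes. All 17 differences were below 0, with a median of -0.354. The arrays of 14 genes did not overlap, with 33D1 DCs lower, against 19% of all genes. Atp5g1 and Atp5g3 are genes of the c subunit, which forms the rotor ring. Atp5g1 had signals of 1860.6, 1869 and 1621.7 in 33D1 DCs and 2754.6, 2502.8 and 3604.6 in DEC205 DCs, a difference of -0.70 ± 0.17 (adjusted p = 0.00331). Atp5g3 had 10690.4, 10749 and 10969.8 against 15750.8, 16826.3 and 18832.4, a difference of -0.66 ± 0.10 (adjusted p = 4.19e-05). The arrays of the subsets did not overlap for either gene, and the 33D1 signals of Atp5g3 had an SD of 147.3 (n = 3). Atp5md, a small membrane subunit, had 1917.7, 1669 and 1654.1 against 2871.2, 2842.3 and 3943.8, a difference of -0.85 ± 0.23 (adjusted p = 0.00765). Without replicate 3 of the DEC205 DCs its difference was -0.70 with an adjusted p of 0.0533, and without the 2 arrays named above it was -0.70 with an adjusted p of 0.0423. The other called genes were Atp5j, Atp5c1 (the central gamma subunit), Atp5pb (the b subunit of the outer stalk) and Atp5d, with differences from -0.46 to -0.29, and all 4 lost the call without the 2 arrays named above (adjusted p from 0.0508 to 0.109).

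Within complex I the called genes were accessory subunits and assembly factors. In wild-type mice 6 of the 28 accessory subunits were called lower on the 33D1 side and 0 higher (limma; 11.8% and 11.3% of all genes). Of the 28, 10 had an unadjusted p under 0.05, near the share of all genes (4218 of 13284). Of the 6 core subunits, which carry the redox centres, 0 were called (limma) and 1 had an unadjusted p under 0.05. Whether core and accessory subunits differ was not tested. Ndufa12, an accessory subunit of the matrix arm, had 2931.7, 3486.5 and 2497 in 33D1 DCs and 5539.2, 5180.6 and 6589.9 in DEC205 DCs. Every 33D1 array lay below every DEC205 array, and the difference was -0.95 ± 0.14 (adjusted p = 1.15e-05). The probe set used carries a suffix that marks probes shared with other transcripts. The other 2 probe sets of the gene that passed the filter carry such a suffix too, and differed by -0.88 and -0.94, both called. The only probe set of the gene without such a suffix was under the filter on every array. Ndufs4, also of the matrix arm, had 1847.2, 1570 and 1219.2 against 2550.2, 2548.3 and 2861.2, a difference of -0.78 ± 0.16 (adjusted p = 0.00064). Of its 2 dimmer probe sets that passed the filter, 1 gave -0.77 and was called, and 1 gave 0.02. Ndufb11, of the membrane arm, had 6256.4, 7251 and 6922 against 10328.8, 11289.8 and 11984.7, a difference of -0.71 ± 0.12 (adjusted p = 8.75e-05), and its other 2 probe sets gave -0.75 and -0.76. Ndufb2, Ndufa9 and Ndufb8 were lower by differences from -0.61 to -0.41, and the call of Ndufb8 (adjusted p = 0.0477) was lost when any 1 array of either subset was left out. With the mean of all probe sets Ndufb2 and Ndufb8 gave -0.25 (adjusted p = 0.134) and -0.11 (adjusted p = 0.784).

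The assembly factors of complex I, which help build the enzyme but are not part of it, went in both directions. Ndufaf6 had signals of 73, 197.6 and 216.1 in wild-type 33D1 DCs and 562, 507.2 and 544.3 in DEC205 DCs. This was the widest difference of the 86 genes, -1.56 ± 0.35 (adjusted p = 0.00173), on a dim probe set that exceeded the filter on 16 of 21 arrays. Ndufaf7, a methyltransferase that modifies a core subunit during assembly, went the other way, with 936.6, 969 and 977.4 in 33D1 DCs against 610, 503.8 and 613 in DEC205 DCs. Its difference was 0.70 ± 0.13 (adjusted p = 0.000257), and it was the only 1 of the 86 genes called higher in wild-type 33D1 DCs. Ndufaf8 was lower by a difference of -0.51 ± 0.12 (adjusted p = 0.00328), but its other probe set gave -0.01 (adjusted p = 0.991) and the mean of all probe sets -0.26 (adjusted p = 0.212). The other 5 factors were not called.

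Complex II, the succinate dehydrogenase that also belongs to the citric acid cycle, had 1 of 4 subunits called lower (11.8% of all genes were lower). Sdhb, its iron-sulfur subunit, had 3988.1, 3993.5 and 3601.7 in wild-type 33D1 DCs and 5277, 5122.9 and 5482.7 in DEC205 DCs, without overlap, a difference of -0.45 ± 0.12 (adjusted p = 0.00588). Sdha, the flavoprotein, differed by 0.02 ± 0.13 (adjusted p = 0.936), and the membrane anchors Sdhc and Sdhd by -0.19 ± 0.12 (adjusted p = 0.286) and -0.36 ± 0.19 (adjusted p = 0.191). Of the 14 complex IV genes 0 were called in this comparison (limma), and their median was -0.189. An unadjusted p under 0.05 was found for 6 of the 14, and for 4218 of all 13284 genes. Isoforms of complex IV that are typical of lung, muscle or testis passed the filter on few arrays in some cases and on nearly all in others. Cox7a1, Cox8b and Cox7b2 did not pass the filter, nor did Ndufa4l2, an Ndufa4 relative known to be induced in hypoxia. A list of such isoforms and their counterparts, Cox4i1, Cox6a1, Cox6b1, Cox7a2, Cox7a2l, Cox8a and Ndufa4 among them, had 11 genes tested. Of these, 0 were called between wild-type subsets (limma; 4 at an unadjusted p under 0.05). Of the isoforms typical of such tissues that passed the filter, Cox8c exceeded 156.3 on 21 arrays, Cox6a2 on 20, Cox4i2 on 9 and Cox6b2 on 7. Just outside, Ndufa4l2 did so on 2 arrays and Cox7a1 on 1.

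**Figure D2:**
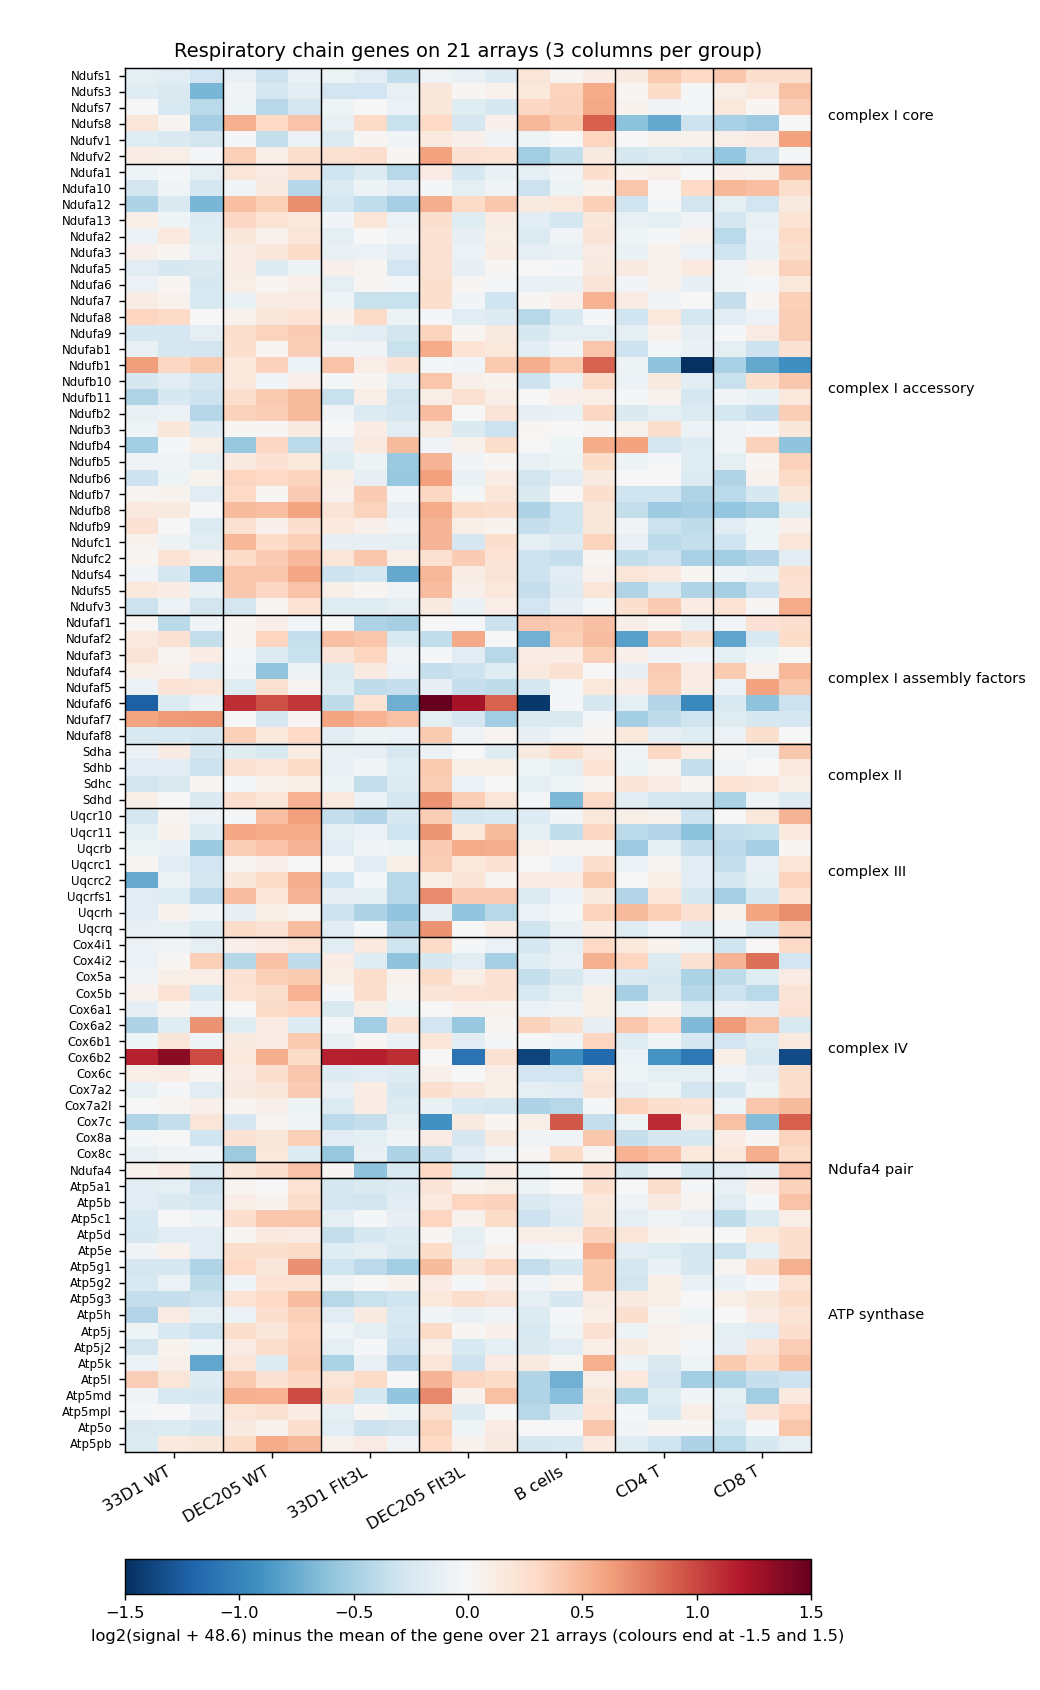
Log2(signal + 48.6) of the 86 respiratory chain genes on 21 arrays, each minus the gene's mean over all arrays, grouped by complex (rows, genes; columns, arrays, 3 per group). The DEC205 columns are warmer than the 33D1 columns over most of complex III and ATP synthase, and Ndufaf6, Ndufaf7, Cox6b2 and Ndufb1 have the strongest contrasts between groups.

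In the DCs of Flt3L mice the subsets differed in the same direction. These arrays are separate from the wild-type ones, so this is a repeat of the comparison in other pools. Of the 86 genes 14 were lower in 33D1 DCs (11.8% of all genes were lower) and 3 were higher (11.7% of all genes were higher), with a median of -0.208 against 0.039 over all genes. The median ranged from -0.243 to -0.124 with each array left out in turn, and after quantile normalization it was -0.164 against -0.001. Arrays did not overlap for 30 genes with 33D1 DCs lower (34.9%, against 19.4% of all genes) and for 2 with 33D1 DCs higher (against 21.4%). The lower count was 9 without replicate 3 of the 33D1 DCs, 8 without replicate 1 of the DEC205 DCs and 18 without replicate 2 of the DEC205 DCs. Without the 2 arrays named above it was 9, near the background, as 1268 of 13284 genes were lower. The median was then -0.157, against 0.021 over all genes. In wild-type mice leaving out 1 array gave 15 to 22 lower genes.

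The same direction was called for 10 genes, lower in 33D1 DCs in both kinds of mice, 47.6% of the 21 called in wild-type and 71.4% of the 14 called in Flt3L mice. Over all genes tested, both shares were 76.3%, so the first share lies below the background and the second is near it. The 10 genes were Ndufaf6, Ndufa12, Ndufs4, Ndufa9, Uqcrfs1, Uqcr11, Uqcrb, Uqcrq, Atp5g1 and Atp5g3. In Flt3L mice the calls of Uqcrq, Ndufs4 and Ndufa9 were lost under some settings. With the mean of all probe sets Uqcrq gave 0.03 (adjusted p = 0.951) and Ndufs4 -0.26 (adjusted p = 0.131), and after median centring Ndufa9 gave -0.43 (adjusted p = 0.0806). Ndufaf7 was higher in both, and 0 genes were called in opposite directions. Differences were below 0 in both comparisons for 70 of 86 genes (81.4%, against 34.3% of all genes). Across the 86 genes the differences of the 2 comparisons correlated with Pearson's r = 0.898 and Spearman's rho = 0.795 (r = 0.884 over all genes tested), and the comparisons share no array. Genes are not independent replicates, so this is a description.

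In Flt3L mice the genes of this shared set had the following signals. Ndufaf6 had 169, 278.6 and 122.8 in 33D1 DCs and 805.6, 627.5 and 475.7 in DEC205 DCs, a difference of -1.54 ± 0.35 (adjusted p = 0.00186). Ndufa12 had 3372.9, 3118.3 and 2851.6 against 5908.9, 4938.5 and 5379.7, a difference of -0.79 ± 0.14 (adjusted p = 0.000122). Uqcrfs1 had 3845.6, 3812.6 and 3139.3 against 6893, 5457.6 and 5450.9, a difference of -0.71 ± 0.17 (adjusted p = 0.00341). None of these 3 genes overlapped between the subsets. Atp5g1 had 1803.9, 1685.7 and 1550.7 against 3117, 2547.2 and 2767.9, a difference of -0.72 ± 0.17 (adjusted p = 0.00247). Ndufaf7 had 939.6, 891.9 and 839.9 against 548.3, 502.2 and 406.3, a difference of 0.82 ± 0.13 (adjusted p = 4e-05). Atp5b, the catalytic beta subunit of ATP synthase, was called in the Flt3L comparison with a difference of -0.51 ± 0.13 (adjusted p = 0.00591). In wild-type mice it differed by -0.35 ± 0.13 (adjusted p = 0.0559). Uqcr11 differed by -0.61 ± 0.16 (adjusted p = 0.0073), which became 0.0549 without replicate 1 of the DEC205 DCs.

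Cox6b2, the testis isoform of a complex IV subunit that lies on its intermembrane side, had its highest signals in 33D1 DCs. It exceeded the filter on all 6 of their arrays and on 1 other, so it entered the test through the group where it is high, and the call is given as a description. In Flt3L mice it had 322.5, 326.9 and 312.3 in 33D1 DCs and 119.1, 29.3 and 148 in DEC205 DCs, all 3 of the latter under the filter. In wild-type mice it had 324.7, 377.9 and 279.9 against 138.6, 194.7 and 153.6, which was not called (adjusted p = 0.109). The subsets did not overlap in either kind of mice. Ndufaf3 was the remaining gene called higher in Flt3L mice (0.36 ± 0.13, adjusted p = 0.047), and that call was lost when replicate 1 or 2 of the 33D1 DCs or replicate 2 or 3 of the DEC205 DCs was left out (adjusted p from 0.0829 to 0.237).

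Promoter sequences were searched for the motifs of NRF1 and GABP, transcription factors known to drive many nuclear genes of the respiratory chain. The window was the 250 bases before the start in RefSeq, build GRCm38.p6, and the motifs were GCGCA, any base and GCGC in a row (NRF1), and CCGGAAGT (GABP), read exactly on either strand and sharing no overlap in the windows printed. Of the 90 genes 74 had an entry. The NRF1 motif was found in 12 of them (16.2%, against 4.23% of 27025 genes) and the GABP motif in 3 (4.05%, against 3.23%). Of the 25 genes lower in 33D1 DCs in either subset comparison 20 had an entry, and 1 held the NRF1 motif and 1 the GABP motif, against 11 and 2 of the 51 other genes tested that had an entry. A match is a description of letters, not a bound site, and the windows printed were chosen after the values were seen. They show both genes of the lower set that hold a motif, Atp5c1 and Uqcr11, beside Atp5h and Sdha, which hold more than 1 match each (Atp5h 1 of each motif, Sdha 3 of NRF1) and were not called between the subsets (motifs in capitals, written along the strand of the gene).
Atp5c1, chr2:10080433-10080682, minus strand, NRF1: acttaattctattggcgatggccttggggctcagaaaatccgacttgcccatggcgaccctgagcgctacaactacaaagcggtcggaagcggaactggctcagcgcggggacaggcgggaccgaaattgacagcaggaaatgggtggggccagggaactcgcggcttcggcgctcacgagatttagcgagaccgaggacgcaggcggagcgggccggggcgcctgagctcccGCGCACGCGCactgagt
Uqcr11, chr10:80406822-80407071, minus strand, GABP: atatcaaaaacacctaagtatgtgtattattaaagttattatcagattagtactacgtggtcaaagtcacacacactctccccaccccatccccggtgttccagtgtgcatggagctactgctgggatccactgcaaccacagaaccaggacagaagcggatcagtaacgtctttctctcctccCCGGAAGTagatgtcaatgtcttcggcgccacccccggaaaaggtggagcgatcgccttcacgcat
Atp5h, chr11:115419920-115420169, minus strand, NRF1 and GABP: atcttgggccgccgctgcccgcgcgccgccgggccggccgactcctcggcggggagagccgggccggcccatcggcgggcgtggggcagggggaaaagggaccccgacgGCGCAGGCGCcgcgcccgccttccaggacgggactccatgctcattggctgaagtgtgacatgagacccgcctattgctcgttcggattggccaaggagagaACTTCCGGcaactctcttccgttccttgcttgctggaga
Sdha, chr13:74350241-74350490, minus strand, NRF1: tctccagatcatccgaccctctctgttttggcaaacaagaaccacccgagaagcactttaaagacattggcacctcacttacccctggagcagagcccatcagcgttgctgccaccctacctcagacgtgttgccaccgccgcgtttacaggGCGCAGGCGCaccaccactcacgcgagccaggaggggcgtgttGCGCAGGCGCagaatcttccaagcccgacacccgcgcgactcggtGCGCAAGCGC
The capitals begin 17 bases before the start in Atp5c1 and 66 in Uqcr11, at 141 (NRF1) and 39 (GABP, on the opposite strand) in Atp5h, and at 98, 55 and 10 in Sdha.

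The difference between the subset differences of Flt3L and wild-type mice was tested directly. It was called for 0 of the 86 genes and for 0.105% of all genes (limma), and 1 member, Ndufb11, had an unadjusted p under 0.05 (0.41 ± 0.17, adjusted p = 0.916). Flt3L mice against wild-type mice gave 0 calls among the 86 genes in 33D1 DCs (1.01% of all genes) and 0 in DEC205 DCs (2.11% of all genes, limma), with 3 and 4 genes at an unadjusted p under 0.05. Uqcrh, the hinge protein of complex III, was the gene found in both of those sets, at -0.41 ± 0.15 (adjusted p = 0.295) in 33D1 DCs and -0.38 ± 0.15 (adjusted p = 0.292) in DEC205 DCs. The median differences were -0.008 and -0.113. In the same comparisons cell cycle genes had medians of 0.789 and 0.738 over 21 genes, of which 1 and 3 were called higher.

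**Figure D3:**
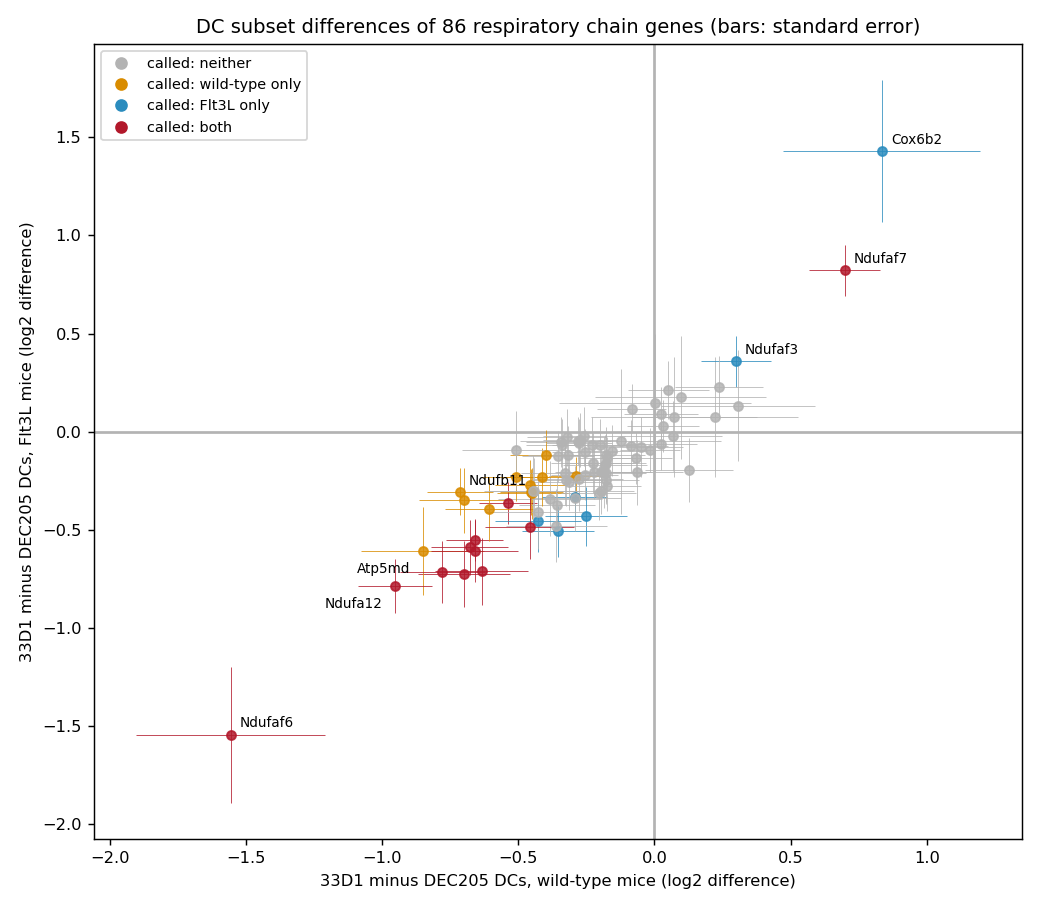
Differences between 33D1 and DEC205 DCs (log2 scale) of 86 respiratory chain genes in wild-type mice (x axis) and Flt3L mice (y axis), with standard errors as bars and colours for calls at an adjusted p under 0.05. 70 genes lie below 0 on both axes, Ndufaf6 lies farthest down at -1.56 and -1.54, and Ndufaf7 and Cox6b2 lie up to the right.

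Several marker lists moved with the subset comparison, and their part in the result was not tested. B cell markers (9 of 10 measured) summed to 8361.2 to 10394.5 in wild-type 33D1 DCs and 3958.1 to 4299.9 in DEC205 DCs, and in Flt3L mice to 8612.3 to 9097.3 and 2103 to 2560.1. Macrophage and monocyte markers (10 of 11 measured) summed to 12576.3 to 18601.7 and 8683.4 to 13293.8 in wild-type mice, where the groups overlap, and to 11132.5 to 14030.1 and 8440.2 to 8912.4 in Flt3L mice, where they do not. T cell markers (10 of 12 measured) summed to 1165.2 to 1222.8 and 691.5 to 746.8 in wild-type mice and to 1092.8 to 1386.7 and 631.9 to 757.4 in Flt3L mice. Erythroid markers (4 of 6 measured) summed to 812.6 to 1163.2 and 402.2 to 631.8, and to 593.7 to 831 and 400.5 to 423.9. B cell, T cell and erythroid markers were thus higher in 33D1 DCs without overlap in both kinds of mice, at sums far below those of B and T cells for the first 2 lists. In Flt3L mice plasmacytoid DC markers (8 of 8 measured; 6368.7 to 8045.9 and 4026.3 to 4907.1), neutrophil markers (7 of 8; 1830.3 to 2330.5 and 936 to 1520.1) and NK cell markers (3 of 5; 512.2 to 605.1 and 300 to 439.3) did not overlap either. The cell cycle genes (21 of 22 measured) had 0 calls in the wild-type subset comparison (limma; 2 at an unadjusted p under 0.05) and a median of 0.327, on the side opposite to the respiratory chain genes.

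Other mitochondrial genes were counted in the same comparison, 33D1 minus DEC205 in wild-type mice. The mitochondrial ribosome translates the subunits encoded in mitochondrial DNA. Of its 76 genes 21 were lower and 0 were called higher (limma; 11.8% and 11.3% of all genes), and the median was -0.274. An unadjusted p under 0.05 was found for 37 of the 76, against 4218 of all 13284 genes. Mrpl42 had the lowest adjusted p, with a difference of -1.21 ± 0.12 (adjusted p = 1.3e-07), and Mrpl22, Mrpl27 and Mrps18b followed with -0.82, -0.72 and -0.63. Of 39 respiratory chain genes whose symbols fall outside the rule 5 were lower, near the share of all genes, and 1 higher. Cycs, which encodes cytochrome c, was lower by a difference of -0.82 ± 0.14 (adjusted p = 0.00012), and Coa5 and Sco2, assembly factors of complex IV, by -0.93 ± 0.11 (adjusted p = 1.69e-06) and -1.26 ± 0.29 (adjusted p = 0.00262). Sdhaf1, an assembly factor of complex II, was higher (0.73 ± 0.16, adjusted p = 0.00178). Of 22 genes of protein import 3 were lower, led by Timm23 (-0.64 ± 0.13, adjusted p = 0.000948), and 0 higher. The lower count for import was also near the share of all genes. Of 7 carriers and porins, 2 were lower and 0 higher (11.8% and 11.3% of all genes). The lower ones were Vdac2 (-0.55 ± 0.12, adjusted p = 0.00165) and Slc25a5, the ADP/ATP carrier (-0.45 ± 0.13, adjusted p = 0.017).

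The citric acid cycle and pyruvate dehydrogenase split, with 3 of 16 genes higher and 3 lower (11.3% and 11.8% of all genes) and a median of -0.003. Mdh2, mitochondrial malate dehydrogenase, was higher in 33D1 DCs (0.87 ± 0.14, adjusted p = 5.53e-05), as were Pdha1 (0.46 ± 0.10, adjusted p = 0.00106) and Dlst, whereas Sucla2, a subunit of succinyl-CoA synthetase, was lower (-0.68 ± 0.10, adjusted p = 1.77e-05). Of 18 regulators of mitochondrial biogenesis 2 were higher, Esrra and Gabpb1, which is near the share of all genes, and 0 lower. Differences between the lists were not tested.

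Against the lymphocytes, more of the genes were higher in DEC205 DCs than is usual for all genes. In 33D1 DCs the median was near that of all genes, and the share called higher was smaller (11.6% against 18.7%). Wild-type DCs as a whole, the mean of both subsets minus the mean of the 3 lymphocyte groups, had 22 of the 86 genes higher and 13 lower, against 22.4% and 30.3% of all genes, with a median of 0.049 against -0.123 over all genes. The split depended on scaling. It was 19 higher and 18 lower after quantile normalization, where the median was -0.026, and 22 higher and 5 lower after centring arrays on their medians. Taken alone, DEC205 DCs had 38 genes higher than lymphocytes and 7 lower (21.5% and 27.6% of all genes), with a median of 0.254 against -0.139 over all genes. 33D1 DCs had 10 higher and 18 lower (18.7% and 24.4% of all genes), with a median of -0.099 against -0.112. These comparisons share the lymphocyte arrays, and other scalings were not tried for each subset alone. In mean log2 signal over the 86 genes, wild-type DEC205 arrays (11.859 to 11.956) overlapped the lymphocyte arrays. Replicate 3 of the B cells had 11.915 and replicate 3 of the CD8 T cells 11.906. Of the 7 groups, DEC205 DCs of wild-type mice had the highest mean of 41 of the 86 genes, and of 10.3% of all genes.

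Core subunits of complex I were the group with the most genes lower in DCs, 4 of 6, against 30.3% of all genes. Ndufs1, the large iron-sulfur subunit, had 1195.5, 1172 and 1073.6 in 33D1 DCs, 1221.1, 1041.1 and 1226.3 in DEC205 DCs, 1503.7, 1354.9 and 1426.3 in B cells, 1455.4, 1742.2 and 1634.7 in CD4 T cells and 1758.1, 1583.5 and 1579.4 in CD8 T cells. All 6 DC arrays lay below all 9 lymphocyte arrays, and the difference was -0.42 ± 0.07 (adjusted p = 3.27e-05). Ndufs3 had 1401.3 to 2219.2 on the 6 DC arrays and 2255.1 to 3365.1 on the 9 lymphocyte arrays, again without overlap, a difference of -0.48 ± 0.09 (adjusted p = 9.33e-05). These were the 2 genes of the 86 whose DC arrays all lay below the lymphocyte arrays, 2.33% against 8.24% of all genes. Ndufs7 and Ndufv1, the NADH-binding subunit, differed by -0.42 ± 0.08 (adjusted p = 0.000202) and -0.33 ± 0.09 (adjusted p = 0.00272), and the second call was lost after median centring (adjusted p = 0.0994). All 4 were called lower in each subset taken alone, unlike the chain as a whole. Ndufv2, the partner of Ndufv1, went the other way, at 0.42 ± 0.10 (adjusted p = 0.00123), with its other 2 probe sets at 0.41 and 0.33, both called. Ndufa10, an accessory subunit, was also lower in DCs in every setting tried.

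Cox6b2 was called higher in DCs, again with the lower group under the filter, so the call is given as a description. Its signals were 279.9 to 377.9 in 33D1 DCs, 138.6 to 194.7 in DEC205 DCs and 15.5 to 128.7 on the 9 lymphocyte arrays, so DC and lymphocyte arrays did not overlap. Ndufc2, an accessory subunit of complex I, was the other gene with DC arrays all above the lymphocyte arrays (0.57 ± 0.08, adjusted p = 1.85e-06), which makes 2.33% of the 86 genes against 7.78% of all genes. Ndufb8, of the membrane arm of complex I, differed by 0.66 ± 0.10 (adjusted p = 3.83e-06). Cox5a, which lies on the matrix side of complex IV, had 11557.7 to 12866.8 in 33D1 DCs, 13908.4 to 15794.7 in DEC205 DCs and 8597.5 to 13036 in lymphocytes, a difference of 0.42 ± 0.08 (adjusted p = 0.000108). Only its DEC205 arrays lay above every lymphocyte array. Cox5b gave 0.39 ± 0.10 (adjusted p = 0.00159), but its probe sets disagreed: 3 others were called higher and a dim one was called lower (-0.76 ± 0.21). The same held for Sdha, called lower at -0.22 ± 0.08 (adjusted p = 0.0331) on 1 probe set and higher at 0.23 ± 0.09 on another, so no direction is given for it. Cox8c, another testis isoform, gave -0.40 (adjusted p = 0.00245), but its other probe set gave -0.04 (adjusted p = 0.924) and the mean of both -0.22 (adjusted p = 0.266).

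Ndufaf6 and Ndufaf7 were higher in DCs as a whole, but each through 1 subset. Ndufaf6 had 55.2 to 233 on the 9 lymphocyte arrays, which spans all 3 arrays of 33D1 DCs (73 to 216.1). DEC205 DCs exceeded lymphocytes by 1.54 ± 0.28 (adjusted p = 9.87e-05), with no overlap. Ndufaf7 had 410.4 to 589.2 in lymphocytes, where DEC205 DCs overlapped them, and 33D1 DCs exceeded them by 0.89 ± 0.11 (adjusted p = 3.46e-07), also without overlap. Uqcrb, Uqcr11 and Atp5md likewise had DEC205 arrays above all lymphocyte arrays (differences of 0.63, 0.81 and 0.92), and 33D1 DCs were not called for them.

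Cell cycle genes moved with this comparison too, with 19 of 21 higher in DCs, against 22.4% of all genes. Their median was 1.217, against -0.123 over all genes, and the part of proliferation in the result was not tested. Of the 18 biogenesis regulators 12 were lower in DCs and 1 higher (30.3% and 22.4% of all genes), with a median of -0.359. Ppargc1b, a coactivator of genes of oxidative metabolism, was lower by a difference of -3.44 ± 0.16 (adjusted p = 2.26e-14), Myc by -1.93 ± 0.16, Polg, the mitochondrial DNA polymerase, by -1.20 ± 0.08, and Tfam, which packages mitochondrial DNA, by -1.12 ± 0.09.

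**Figure D4:**
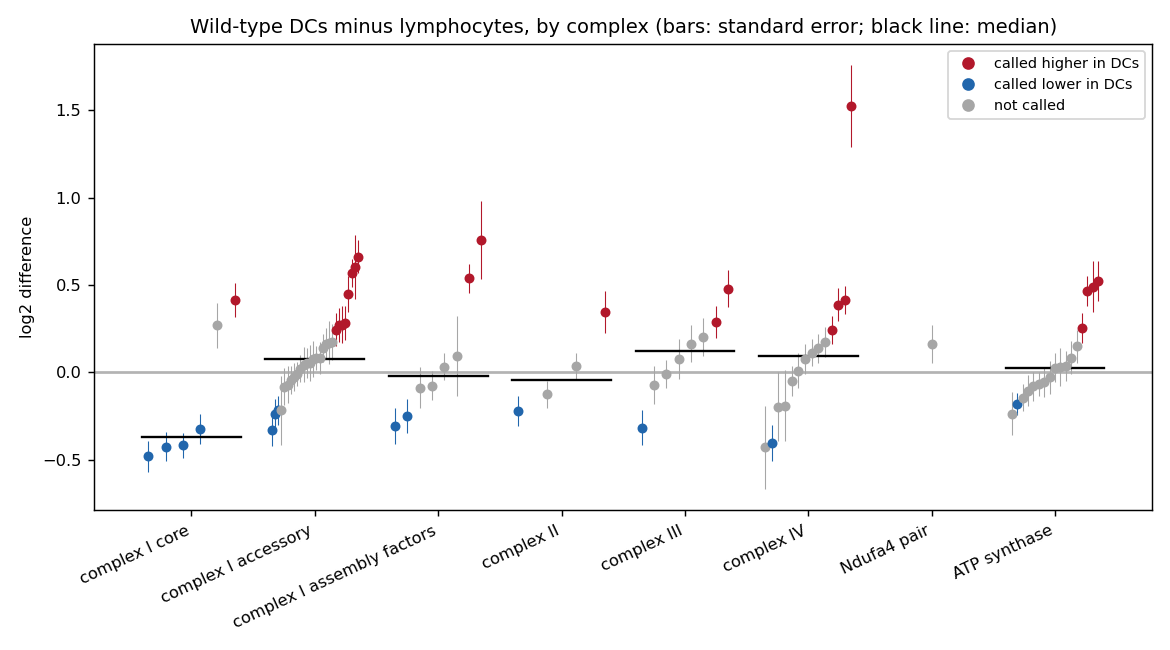
Differences between wild-type DCs and lymphocytes (log2 scale) of the 86 genes by complex, each point a gene with its standard error, coloured by its call at an adjusted p under 0.05 (black lines, medians). The core of complex I has 4 of 6 genes called lower, and the highest point, Cox6b2 of complex IV, has all its lymphocyte signals under the filter.

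Among lymphocytes few of the genes differed. The B cell mean minus the mean over CD4 and CD8 T cells gave 5 genes higher and 3 lower, against 13.1% and 13.9% of all genes. The split was 5 and 7 after quantile normalization and 2 and 1 after median centring. The higher count was 2 to 3 without B cell replicate 2 or 3 or CD8 T cell replicate 1 or 2 and 8 without CD8 T cell replicate 3, and the lower count was 1 without B cell replicate 1 and 5 without B cell replicate 3 or CD8 T cell replicate 1. Ndufb1, a small membrane-arm subunit of complex I, had 667, 594.4 and 854.5 in B cells, 417.7, 274.2 and 92.1 in CD4 T cells and 302.5, 240.3 and 211.2 in CD8 T cells. B and T cell arrays did not overlap, and the difference was 1.38 ± 0.25 (adjusted p = 0.000128). Ndufs8, an iron-sulfur core subunit, had 7892.8, 7387.6 and 10517.4 in B cells and 3296.2 to 5668.6 in T cells, again without overlap, a difference of 1.04 ± 0.17 (adjusted p = 5.26e-05). Of its 5 other probe sets 4 were called higher and 1 gave -0.04.

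Cox7a2l, counted here with complex IV, was lower in B cells. It had 5528.8, 5707.3 and 7492.7 in B cells, 9602.3, 8995.1 and 8884.9 in CD4 T cells and 7286.1, 10130.1 and 10645.5 in CD8 T cells. Replicate 3 of the B cells lay above 1 CD8 T cell array, and the difference was -0.57 ± 0.12 (adjusted p = 0.000591), with both other probe sets called lower. These 3 genes kept their call in every setting tried, other probe sets aside. Ndufa12, Uqcrb, Ndufs7, Ndufa10 and Ndufv3 lost it in 2 or more. CD8 against CD4 T cells gave 0 calls (limma; 3.26% of all genes), with 4 genes at an unadjusted p under 0.05 and a median of 0.092.

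**Figure D5:**
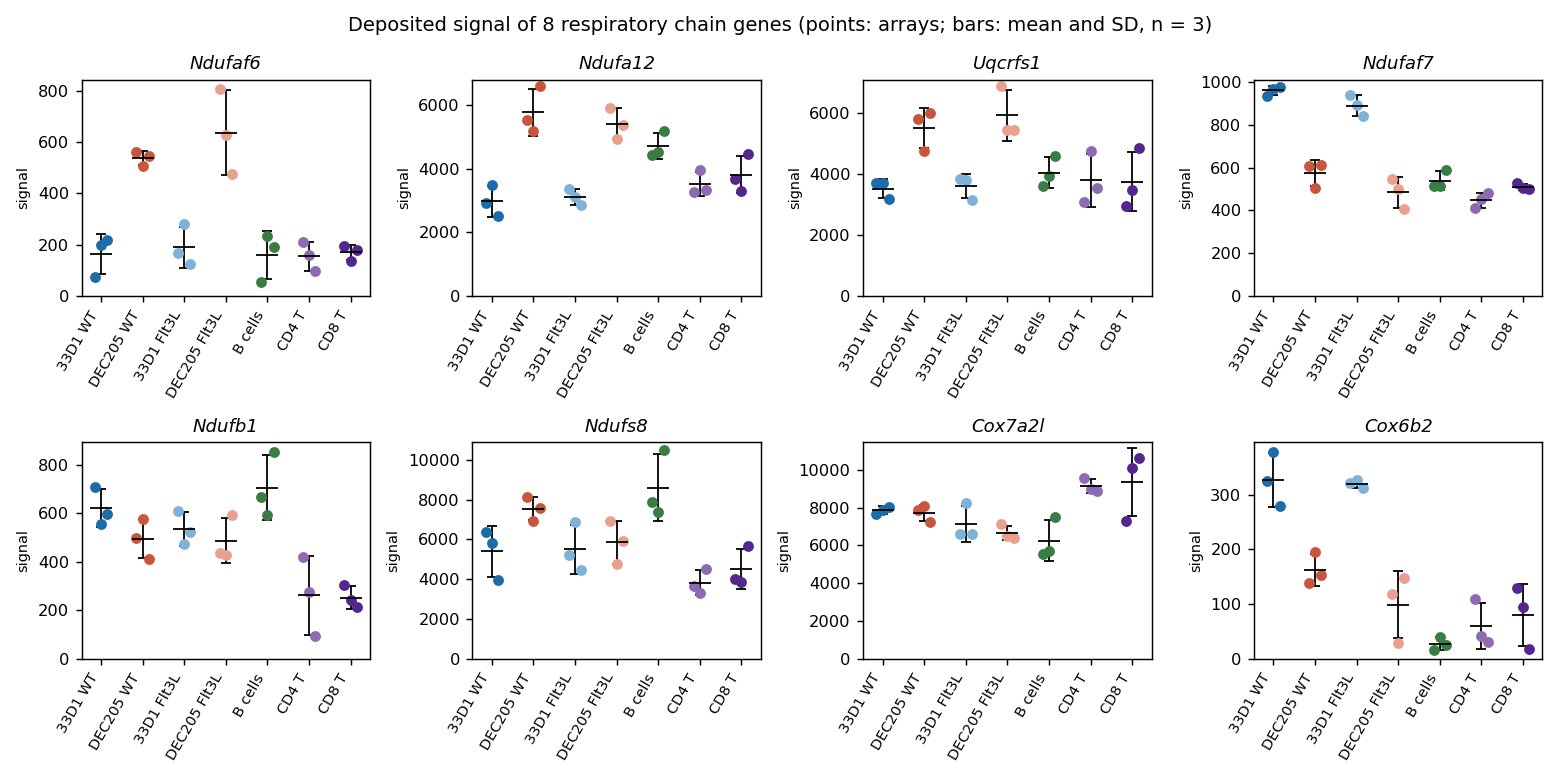
Deposited signal (linear scale) of 8 respiratory chain genes on every array of the 7 groups (points, arrays; bars, mean and SD, n = 3). Ndufaf6 is highest in the DEC205 groups, Ndufaf7 and Cox6b2 in the 33D1 groups, Ndufs8 in B cells with DEC205 DCs next, and Cox7a2l in T cells.

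Over the 7 groups the respiratory chain genes varied less than most. The range of the 7 group means had a median of 0.541 over the 86 genes and 0.886 over all genes, and it reached 1, a doubling on the log2 scale, for 6 genes (7%, against 42.9% of all genes). The 6 were Cox6b2 (2.32, with its lower groups under the filter), Ndufaf6 (1.81), Ndufb1 (1.43), Ndufs8 (1.15), Uqcr11 (1.05) and Ndufaf7 (1.03). These are differences within a gene and say nothing of levels between genes.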

How the data were processed

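Expression came from 21 Affymetrix arrays, 3 per group of sorted spleen cells, with biotinylated cRNA made from 5 ug total RNA per the labels' protocols. The deposited values are signal intensities of probe sets, not in log units. The submitters' processing notes name GCOS and MAS5 (versions not given in the sources used here). Every array had a 2% trimmed mean of 500, so arrays had been scaled before deposit, and the signal reflects a share of the array's brightness rather than an amount per cell.

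The table held 45101 probe sets. Symbols came from the platform annotation, and only the 34945 probe sets with exactly 1 symbol were used (932 had more than 1, and 9160 had no symbol). For the respiratory chain, 10 probe sets shared with other symbols were left out, so Ndufa11 and Ndufs6 were not measured. Suffixes _s_at and _x_at mark probes that may also bind other transcripts or pseudogenes, so values of such probe sets (among those used Ndufa12, Ndufab1, Ndufaf7, Ndufc2, Ndufs8, Sdhc, Uqcrh, Uqcrq, Cox5b, Atp5c1, Atp5d and Atp5pb) are uncertain. A probe set was kept if it exceeded 156.3 on at least 3 arrays, and the brightest of a gene was used (51 of the 90 genes had several, up to 6).

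Deposited signals were taken to log2 after adding 48.6, which is the table's lower quartile. All arrays entered 1 limma model with 7 group means (limma 3.58.1 in R 4.3.3, eBayes with trend by intensity, residual degrees of freedom 14, two-sided tests, Benjamini-Hochberg over 13284 genes). The code was tested on simulated data. Figures used matplotlib 3.10.9. The number of arrays, 3 per group, limits the precision. Errors beside differences are standard errors. The genes, lists and tests were chosen with earlier results of these data known, so no test of the set as a whole was made. Any gene of the set could be named. Those described were the called ones with the widest differences, up to 8 per direction, every complex II subunit, the tissue isoforms, and up to 4 called genes per other list with the smallest adjusted p. The comparisons of each DC subset alone with lymphocytes were added after the data were seen. Replicate numbers were not taken as pairs (see the dependence on processing). Alternatives covered the offset, the filter, quantile normalization, median centring, the mean of all probe sets, no intensity trend, only the groups compared, the replicate block, each array left out, and, added after the data were seen, each kept probe set on its own.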

Additional observations from a re-analysis of the deposited data

How the results depend on the processing

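Of 82 calls of single genes, 44 kept direction and side of the threshold under every alternative setting in which the gene was tested. When each other kept probe set was tested too, 41 did so. With other probe sets aside, the 44 were 12 of 21 lower genes and 1 of 1 higher between wild-type DC subsets, 7 of 14 lower and 2 of 3 higher between Flt3L subsets, 15 of 22 higher and 4 of 13 lower in DCs against lymphocytes, and 3 of 8 in B against T cells. The calls of Cox6b2 are among them, and that gene entered the test through the group where it is high. The stricter filter (at least 12 arrays) removed Cox6b2, so its calls were not tested in that setting. The cause of changes was not tested unless stated.

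Counts that moved by over 1.5 times were these. Between wild-type subsets 2 genes were higher with an offset of 200, with the mean of all probe sets and with only the groups compared. Between Flt3L subsets 9 were lower after median centring and without both mixed arrays (replicate 3 of wild-type DEC205 and of Flt3L 33D1 DCs). Of all 13284 genes, 1466 and 1268 were lower in these 2 settings, so both counts of 9 were near the background. With each array left out in turn, 8 to 18 were lower. For DCs against lymphocytes 5 were lower after median centring, and each subset alone is a different comparison (33D1, 10 higher and a median of -0.099; DEC205, 38 higher, 7 lower and a median of 0.254). For B against T cells 2 were higher after median centring and 3 without the intensity trend, 7 were lower after quantile normalization and 1 after median centring, and leaving out single arrays gave 2 to 8 higher and 1 to 5 lower. CD8 against CD4 T cells gave 1 higher gene after quantile normalization.

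Reversed signs came from averaging probe sets or from other, mostly dim, probe sets. Between Flt3L subsets Ndufs4 gave 0.218 and Uqcrq 0.026 (mean of all), 0.086, 0.012 and 0.493. Between wild-type subsets Ndufs4 gave 0.023, Uqcrq 0.004, Atp5c1 0.351, Ndufb2 0.362 and Ndufb8 0.2. For DCs against lymphocytes Atp5c1 gave -0.012, Cox5b -0.757 and Sdha 0.227, and for B against T cells Ndufs8 gave -0.041.

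Deviations from group means of arrays with the same replicate number correlated with a mean r of -0.017 over 63 pairs (0.008 for different numbers), with the lowest at -0.378, so the numbers were not taken as pairs. As a hint from the data in the other direction, 12 of 21 arrays correlated best with an array of their own number, although only 6 of the 18 arrays of other groups share it. With the replicate block the counts were 1 higher and 20 lower between wild-type subsets, 2 and 14 between Flt3L subsets, 22 and 13 for DCs against lymphocytes and 5 and 3 for B against T cells.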

Other observations

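For 5 of the 6 respiratory chain genes whose group means ranged by at least 1, the genes with the most similar profile over the 7 group means of log2 signal are given as a description, with no test. They were picked from the genes tested whose own group means ranged by at least 1 (42.9% of 13284). For Ndufaf6 the closest were Alms1 (r = 0.9994), Met (0.9962) and Cadm1 (0.9956), the last a marker of the DEC205 subset. For Ndufaf7 they were Crispld2 (0.9959), Cdhr3 (0.9926) and Adgre1 (0.9903), and Sirpa, a marker of the 33D1 subset, was among the 5 closest (0.9878). For Ndufb1 they were H2-Ob (0.9955), Lmo2 (0.9918) and Hhex (0.9887). For Cox6b2 they were Myo1h (0.9895), Lpar3 (0.9894) and Myo9b (0.986). For Ndufs8 the best match was lower, Timm8b at r = 0.9516, a gene of mitochondrial import.

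Of the 76 genes of the mitochondrial ribosome 12 were higher and 24 lower in DCs than in lymphocytes (22.4% and 30.3% of all genes), with a median of -0.156 against -0.123 over all genes, which is near the background. Mrpl58 had the smallest adjusted p in the joint comparison (-0.80 ± 0.09, adjusted p = 1.5e-07), followed by Mrps5 (-0.71 ± 0.09, adjusted p = 4.72e-07).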
